A study of Danio rerio with 4 samples.

Results

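The brain transcriptome of zebrafish exposed to 1.0 mg/L butylparaben was set directly against that of fish exposed to 0.1 mg/L, without passing through the vehicle control. The comparison takes the 2 libraries of these doses from a series of 4 and covers 16522 of 32520 annotated genes, those whose counts, brought to a common library size (CPM), averaged 1 or more over the 4 libraries. All 4 libraries were poly(A) RNA from brains of wild-type zebrafish (Danio rerio): 1 held in the vehicle alone (0.1% dimethyl sulfoxide) and the others in butylparaben at 0.01, 0.1 or 1.0 mg/L. The title of the study concerns chronic exposure, light sensitivity and memory in adult fish. The labels name dimethyl sulfoxide for the control alone, and they do not give the sex of the fish, the number of brains in a library, the length of exposure or the hour of sampling. Each group is 1 library, so every difference below is between 2 libraries, no test between doses was possible, and the variation between fish is unmeasured.

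Butylparaben is an ester of para-hydroxybenzoic acid used as a preservative. The fish brain holds its own light sensors: the pineal organ contains photoreceptor cells that use an opsin, a transducin G protein and a phosphodiesterase much as retinal rods do, and it makes melatonin at night. The circadian clock runs in most zebrafish cells as a loop in which period and cryptochrome proteins repress the clock and arntl factors. Interferons switch on a set of antiviral genes through STAT and IRF transcription factors, in neurons and glia as well as in immune cells.

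The lower dose gave 9907714 counts and the higher dose 9750590, and mitochondrially encoded genes took 26.3% and 28.2% of them. A count of 0 allows a level of up to 0.298 CPM at the lower dose and 0.295 CPM at the higher one (3 counts). The control carried transcripts of oocytes: 31 measured egg coat and oocyte genes summed to 708.7 CPM there against 18.95, 20.53 and 17.7 CPM at the rising doses. The control therefore enters only the filter, the scaling and, below, each gene's values. Of these 31 genes 2 were lower at 1.0 mg/L, beside 1.35% of all measured genes. They were the egg coat genes zp2.2 (9 counts against 1) and zpax1 (13 against 4). Both passed the filter through the control, where they had 348 and 323 counts, and their ratios rest on the few counts given.

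The ratio of each gene was taken as 1.0 over 0.1 mg/L on the log2 scale, after adding 0.5 to the CPM. Genes past 2-fold on this scale, whose exact 95% interval also left out equality, count as higher or lower. By this size rule 315 genes (1.91%) were higher at 1.0 mg/L and 223 (1.35%) were lower, 538 (3.26%) in all. Past 4-fold on the same scale were 33 higher genes (0.2%) and 23 lower ones (0.139%). The median gene stood at -0.01 and 82.7% of genes lay within 0.5 log2 of equality. Calls were mostly genes of low abundance: 404 of the 538 had a mean under 5 CPM over the 2 libraries, and calls took in 10 of the 3098 genes averaging 50 CPM or more. At a mean of at least 5 CPM over the 4 libraries, 73 of 11258 genes were higher and 60 lower. The shares over all measured genes given below are not matched for abundance, so lists of low genes are set beside a mixed background. The interval covers counting error only. It removed no gene here, since all 538 genes past 2-fold on this scale had an interval that left out equality. The 2 other pairs of exposed libraries differed about as widely, with 561 calls (3.4%) for 1.0 against 0.01 mg/L and 554 (3.35%) for 0.1 against 0.01 mg/L; each shares a library with the comparison described here.

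**Figure D1:**
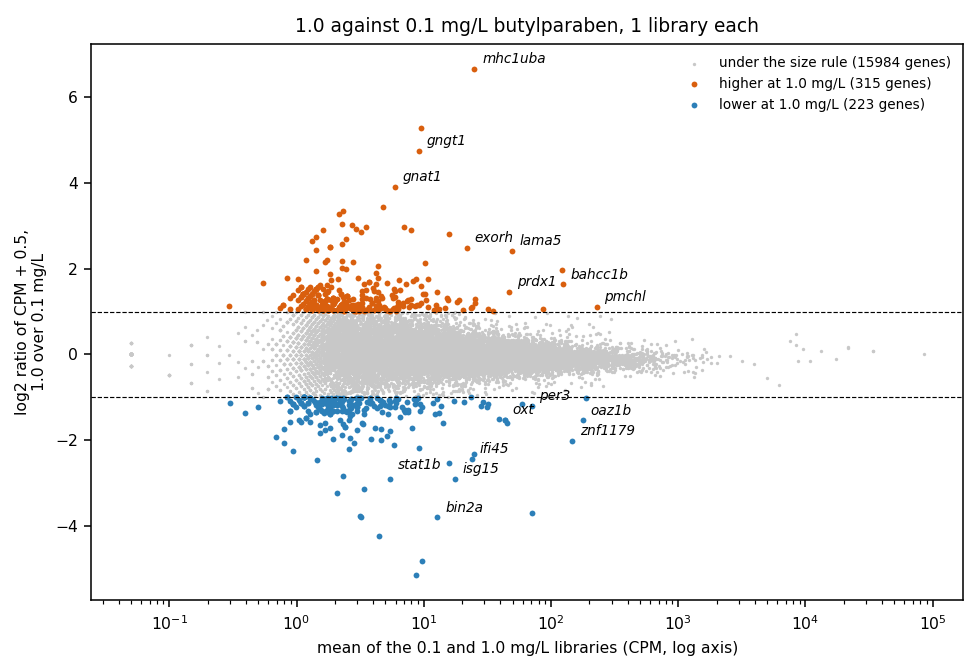
Log2 ratio of CPM + 0.5, 1.0 over 0.1 mg/L (vertical axis), against the mean CPM of the 2 libraries (horizontal log axis), 1 point per measured gene; dashed lines mark 2-fold. The 315 genes higher and 223 lower at 1.0 mg/L lie mainly at low abundance, with mhc1uba highest at 6.66 and isg15, stat1b and ifi45 among the lower genes.

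A group of antiviral genes of the interferon response was lower at 1.0 mg/L than at 0.1 mg/L. Of 56 matched members 37 were measured, and 10 of those were lower and 0 higher, against 1.35% and 1.91% of all measured genes. Their median log2 ratio was -0.43, with 8 members above 0 and 29 below. It was -0.20 among members with a mean of at least 5 CPM, and -0.255 and -0.245 in the deposited TPM and RPKM. Values below are given in the order control, 0.01, 0.1 and 1.0 mg/L. isg15 (ENSDARG00000086374, chromosome 5, 20112032 to 20113284 on GRCz11), a ubiquitin-like protein joined to other proteins during antiviral responses, had 2.67, 3.39, 31.3 and 3.74 CPM. The 0.1 mg/L library stood above the other 3, and isg15 was 8.39-fold lower at 1.0 mg/L (interval 5.98 to 12.07).

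Among the transcription factors, stat1b (ENSDARG00000076182, chromosome 9, 41218967 to 41247197), which carries the interferon signal to the nucleus, had 1.51, 4.66, 27.5 and 4.33 CPM and was 6.35-fold lower at 1.0 mg/L (interval 4.61 to 8.94). irf7, an amplifier of interferon transcription, had 0.534, 0.529, 4.17 and 1.28 CPM and was 3.26-fold lower (interval 1.72 to 6.62). Both stood highest at 0.1 mg/L. Their partners were under the size rule: stat2 had 14.8, 12.6, 31.4 and 17.7 CPM (log2 ratio -0.81), irf9 11.0, 11.5, 18.6 and 13.7 CPM (-0.43), and the paralog stat1a 75.2, 71.1, 88.4 and 65.6 CPM (-0.43). For stat2 and irf9 the 0.1 mg/L library was again the highest of the 4.

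The called antiviral effectors were likewise highest at 0.1 mg/L. ifi45 (ENSDARG00000017489, chromosome 13, 37605896 to 37608441), an interferon-induced gene, had 2.05, 6.56, 40.9 and 7.18 CPM and was 5.69-fold lower at 1.0 mg/L (interval 4.43 to 7.405). Its neighbour ifi46, 37623276 to 37631092 on the same chromosome, had 4.097, 3.28, 8.53 and 3.64 CPM and was 2.34-fold lower (interval 1.58 to 3.55). Because the 2 genes may be near copies, the share of reads given to each is uncertain. rsad2 (chromosome 17, 35357451 to 35361322), which codes for the antiviral enzyme viperin, had 2.23, 2.65, 8.33 and 1.87 CPM and was 4.46-fold lower (interval 2.69 to 7.77). dhx58, a sensor of viral RNA, had 0.178, 0.741, 4.86 and 0.787 CPM and was 6.18-fold lower (interval 2.90 to 15.1). mxb, a dynamin-like GTPase, had 0.0891, 0.318, 4.07 and 1.08 CPM and was 3.76-fold lower (interval 1.90 to 8.11). gbp2, a guanylate-binding protein gene, and si:dkey-97a13.6 completed the 10, at 2.52-fold (interval 1.63 to 3.99) and 2.45-fold lower (interval 1.45 to 4.29). In every one of these genes the 0.1 mg/L library held the highest value of the 4.

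Other members were closer together or went the other way. mxc, another dynamin-like GTPase gene, had 2.14, 6.25, 6.74 and 13.2 CPM (log2 ratio 0.92). socs3a, a feedback inhibitor of cytokine signalling, had 19.8, 18.5, 14.9 and 27.6 CPM (0.87), while its relative socs1a had 4.19, 5.08, 15.6 and 9.44 CPM (-0.69). adar, the RNA-editing enzyme, and trim25, a ubiquitin ligase, were near equality at 0.13 and -0.09. dhx58, mxb and irf7 averaged under 1 CPM over the control and 0.01 mg/L libraries, so they were measured through the 0.1 mg/L library. Without such genes 7 of 31 members were lower and 0 higher. Over the 54 members with any count, 40 were lower and 14 higher in CPM at 1.0 mg/L. Their median was -0.333, beside -0.005 over all 23677 genes with a count in the 2 libraries. The 19 matched members under the filter held 46, 34, 90 and 55 counts. One of these was mxa, with 5, 1, 28 and 3 counts.

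**Figure D2:**
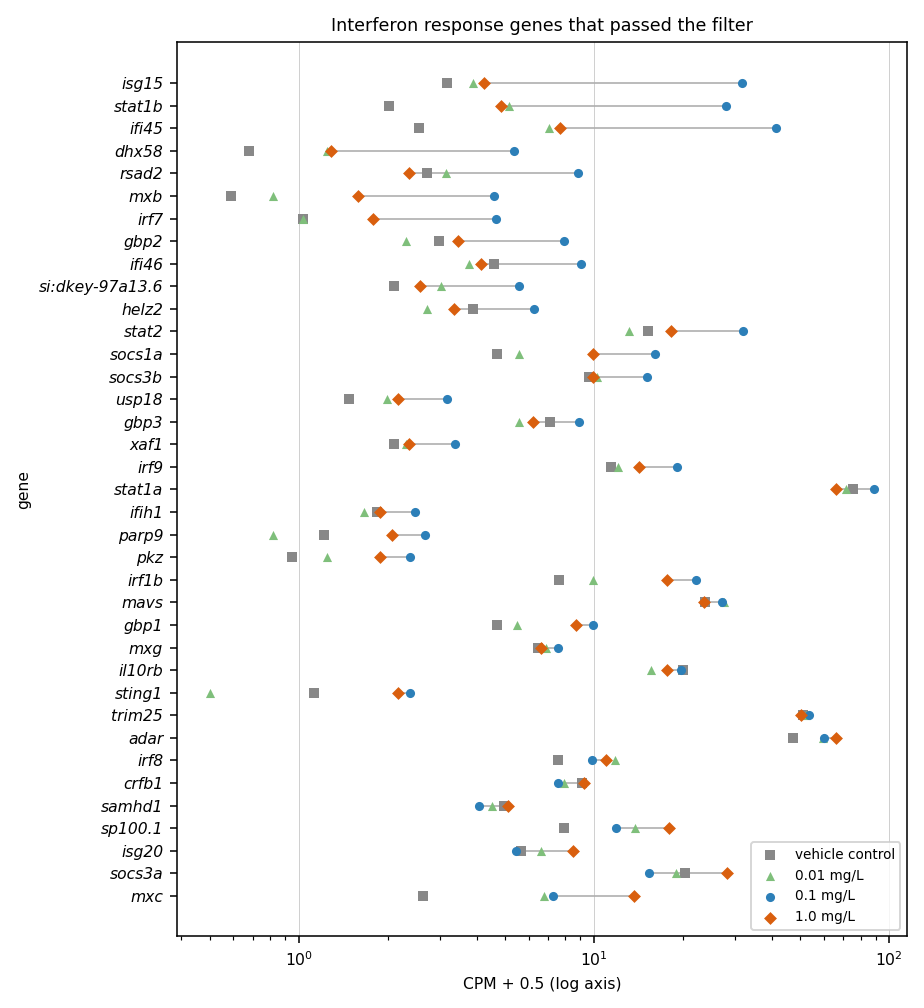
CPM + 0.5 on a log axis in each of the 4 libraries for the 37 measured interferon response genes, ordered by log2 ratio; the line joins the 0.1 and 1.0 mg/L libraries. From isg15 to si:dkey-97a13.6, the 10 genes past the size rule, the 0.1 mg/L library (circles) lies to the right of the other 3.

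In bulk tissue, fewer cells of a type and less RNA per cell cannot be told apart. Microglia, the resident macrophages of the brain, were represented by 29 measured of 36 matched markers with a median of -0.12. None of the 29 was at 0 in either library, and they summed to 708.9, 718.3, 831.5 and 723.3 CPM. c1qc, a chain of the complement starter C1q, was the single marker called (3.45%, beside 3.26% of all measured genes). It had 0.98, 0.635, 0.595 and 1.77 CPM (2.97-fold higher, interval 1.13 to 9.15). Lymphocyte and granulocyte markers were sparse, with 13 of 39 measured, and summed to 165, 146.1, 177.6 and 130.5 CPM. Their median was 0.165, with 8 members above 0 and 5 below, and 1 was called, as lower (7.69%). Their part in the interferon difference was not tested.

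One of those markers, bin2a (ENSDARG00000003219, chromosome 23, 33739215 to 33753361), a gene of the amphiphysin family known from white blood cells, had 4.99, 0.529, 24.3 and 1.28 CPM. It was 19.01-fold lower at 1.0 mg/L (interval 10.9 to 36.2). lgals17, a galectin gene, had 0.178, 0.318, 9.92 and 0.885 CPM and was 11.2-fold lower (interval 5.67 to 25.2). Both stood highest at 0.1 mg/L, as the 10 called interferon genes did. The complement gene c3b.2 and nos2a, which codes for the inducible nitric oxide synthase, were chosen after their values were seen. c3b.2 had 15, 20, 4 and 94 counts and nos2a 49, 69, 1 and 45 counts, 23.3-fold (interval 8.80 to 87.3) and 44.6-fold (interval 7.61 to 1801) higher at 1.0 mg/L.

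Antigen presentation genes showed no common direction. Of 35 measured members of 46 matched, 2 were higher and 1 lower (8.57% called, beside 3.26% of all measured genes). The median was -0.03. The class I gene mhc1uba (ENSDARG00000075963, chromosome 19, 7072854 to 7101100), which presents peptides on the cell surface, had 478, 1, 0 and 508 counts. It was present in the control and at 1.0 mg/L and nearly or wholly without counts in the libraries between, and was at least 168-fold higher at 1.0 than at 0.1 mg/L. The class II gene mhc2b had 1.78, 7.41, 3.17 and 9.93 CPM, and was 3.13-fold higher (interval 2.08 to 4.82). Another class II gene, mhc2dab (chromosome 8, 36466771 to 36469117), had 51.7, 36.2, 68.2 and 22.03 CPM and was 3.098-fold lower (interval 2.66 to 3.62). These genes are polymorphic copies whose reads RSEM, the counting program, divides among members, so the values of single members are uncertain.

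The rest of the antigen machinery lay near equality. b2m, the light chain that class I molecules need, had 145, 167, 205 and 162 CPM (log2 ratio -0.34), and cd74a, the chaperone of class II, had 206, 273, 250 and 241 CPM (-0.05). The peptide transporter gene tap1 and the immunoproteasome subunit gene psmb8a stood at 0.30 and 0.19. The class II alpha chain gene mhc2a, at 25.4, 25.5, 29.8 and 15.7 CPM, had a log2 ratio of -0.90, short of the size rule.

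Several rod-type phototransduction genes were higher at 1.0 mg/L. Of 40 matched members 17 were measured, with 8 higher, 1 lower (1.91% and 1.35% of all measured genes) and a median of 0.99. gngt1, gnat1, pde6b and the lower gene, grk1b, passed the filter only through the library where they were high, and without such genes 5 of 12 were higher and 0 lower. gngt1 (ENSDARG00000035798, chromosome 19, 40856534 to 40859468), the gamma subunit of transducin, had 1.25, 0.741, 0.198 and 18.2 CPM. gnat1 (ENSDARG00000044199, chromosome 6, 42918933 to 42930302), the transducin alpha subunit that opsin activates, had 0.356, 0.106, 0.297 and 11.5 CPM. The 1.0 mg/L library was far above the other 3 for both, by 91.7-fold (interval 25.03 to 763) and 38.7-fold (interval 12.9 to 190.2) over the 2 and 3 counts found at 0.1 mg/L.

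The light-absorbing protein was represented by exorh (ENSDARG00000111860, chromosome 8, 54302700 to 54304381), the rhodopsin of the fish pineal organ. It had 16.1, 12.17, 6.25 and 37.4 CPM and was 5.98-fold higher (interval 4.57 to 7.94). Retinal rhodopsin, rho, had 5, 1, 0 and 0 counts. So the pineal opsin was the higher one, and the retinal opsin was without counts in both libraries compared.

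The subunits of the phosphodiesterase that transducin switches on stood highest at 1.0 mg/L as well. pde6gb, an inhibitory gamma subunit gene, had 17.0, 10.9, 11.0 and 27.14 CPM and was 2.47-fold higher (interval 1.97 to 3.102). pde6a, the alpha subunit, had 2.05, 1.38, 1.79 and 4.13 CPM and was 2.31-fold higher (interval 1.303 to 4.27). pde6b, the beta subunit, had 6, 5, 1 and 28 counts, a ratio of 27.8 (interval 4.59 to 1135). slc24a1, an ion exchanger of rods, and gucy2d, a guanylate cyclase that restores cyclic GMP, were 3.97-fold (interval 1.69 to 10.8) and 2.88-fold higher (interval 1.36 to 6.61). For slc24a1, at 2.67, 1.16, 0.694 and 2.75 CPM, the control was close to the 1.0 mg/L library. For gucy2d the control was higher still, at 6.32 CPM against 2.85 CPM at 1.0 mg/L.

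Some rod-type genes did not share this direction. grk1b, an opsin kinase gene, had 0.445, 0.318, 4.46 and 0.787 CPM and was 5.67-fold lower at 1.0 mg/L (interval 2.65 to 13.9). rp1l1a, whose relatives are microtubule proteins of photoreceptors in mammals, had 15.4, 25.3, 38.3 and 21.9 CPM (log2 ratio -0.79). gnb1a and gnb1b, G protein beta subunits used widely in neurons, stood at 0.08 and -0.08, and the photoreceptor factor nr2e3 at 0.10.

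Cone-type genes had the same median, 0.99, with 10 of 36 matched members measured, 5 higher and 0 lower, beside the same 1.91% and 1.35% of all genes. arr3a, a cone arrestin that ends the opsin signal, had 1.69, 0.953, 0.496 and 4.03 CPM and was 8.13-fold higher (interval 3.22 to 26.4). slc24a2, a cone ion exchanger, had 1.87, 0.529, 0.595 and 3.93 CPM and was 6.61-fold higher (interval 2.78 to 19.1). tbx2a, a T-box transcription factor, had 6.77, 6.99, 3.77 and 8.65 CPM (2.296-fold, interval 1.55 to 3.45). The channel subunit gene cnga3a and the phosphodiesterase gamma subunit gene pde6ha were 2.68-fold (interval 1.26 to 6.199) and 2.23-fold higher (interval 1.49 to 3.40). gnat2, the cone transducin alpha subunit, was level, with 30, 28, 28 and 28 counts. The cone opsin genes opn1lw1, opn1lw2, opn1mw1, opn1sw1 and opn1sw2 had at most 5 counts in any library.

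**Figure D3:**
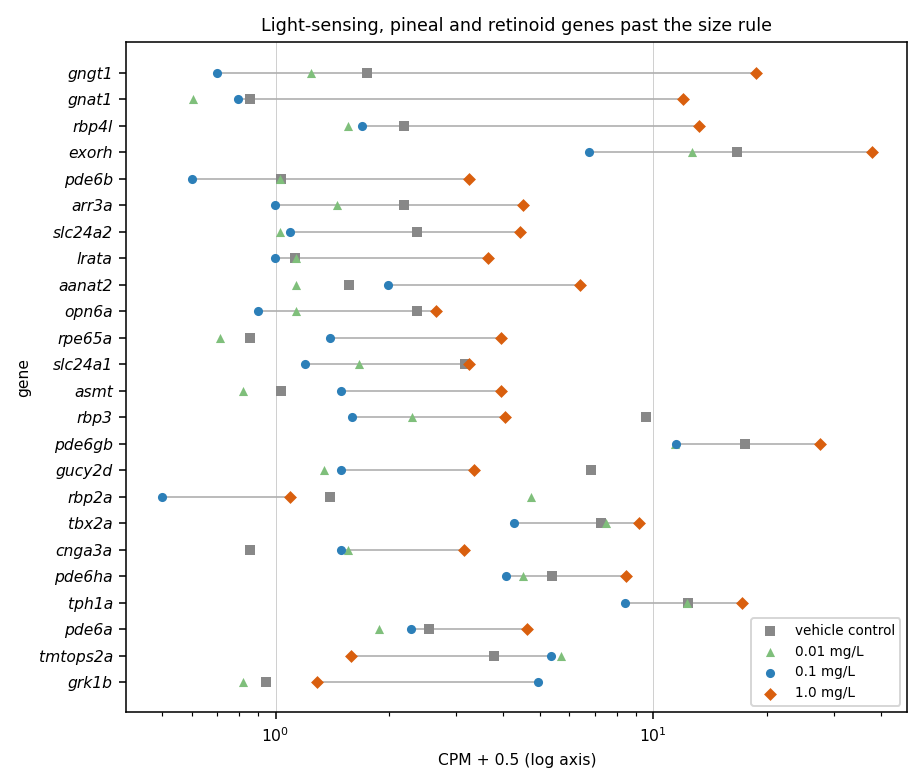
CPM + 0.5 on a log axis in each of the 4 libraries for genes of the phototransduction, pineal, retinoid and non-visual opsin lists that passed the size rule; the line joins the 0.1 and 1.0 mg/L libraries. Diamonds (1.0 mg/L) lie to the right of circles (0.1 mg/L) for all genes drawn except tmtops2a and grk1b, and gngt1 and gnat1 show the widest gaps.

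Several melatonin and pineal identity genes were also higher at 1.0 mg/L. Of 36 matched members 20 were measured, with 7 higher and 0 lower (1.91% and 1.35% of all measured genes) and a median of 0.55. Of the 7, gngt1, gnat1, aanat2 and asmt averaged under 1 CPM over the control and 0.01 mg/L libraries. With the filter on those libraries 3 of 16, exorh, tph1a and rbp3, were higher and the median was 0.23. The rod-type genes gngt1, gnat1 and exorh are among the 7, since the pineal organ uses them. So is rbp3, a retinoid carrier gene higher in the control (9.09 CPM) than at 1.0 mg/L (3.54 CPM). The pineal counts therefore overlap with those of the rod-type and retinoid lists. Along the path to melatonin, tph1a, which makes the serotonin precursor, had 11.8, 11.8, 7.93 and 16.7 CPM and was 2.11-fold higher (interval 1.61 to 2.78). aanat2 (chromosome 3, 54887782 to 54893706), the timing enzyme of melatonin synthesis in the fish pineal organ, had 1.07, 0.635, 1.49 and 5.90 CPM and was 3.97-fold higher (interval 2.22 to 7.52). asmt, the last enzyme of the path, had 0.534, 0.318, 0.992 and 3.44 CPM and was 3.47-fold higher (interval 1.68 to 7.86). All 3 enzymes had their highest value at 1.0 mg/L. In bulk tissue, more pineal cells in a library and more RNA per cell cannot be told apart.

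Other pineal genes were closer together. asmt2 and aanat1, relatives of these enzymes, had log2 ratios of 0.39 and 0.55, and bsx, a homeobox gene of the developing pineal organ and hypothalamus, had 4.097, 5.82, 4.07 and 8.457 CPM (0.97). The homeobox gene otx2b, which the choroid plexus and midbrain also use, had 83.2, 61.3, 65.5 and 51.6 CPM (-0.34). Below the filter, crx, the homeobox activator of photoreceptor genes, had 0, 0, 1 and 16 counts, and parapinopsinb, an opsin of the pineal organ, had 5, 0, 2 and 28.

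Retinoid handling genes had 31 of 45 matched members measured, 5 higher and 0 lower (1.91% and 1.35% of all measured genes), with a median of 0.25. With the filter on the control and 0.01 mg/L libraries, which left out rpe65a and lrata, 3 of 27 were higher and the median was 0.07. rbp4l (ENSDARG00000044684, chromosome 21, 20338613 to 20342096), a relative of the retinol carrier of blood, had 1.69, 1.06, 1.19 and 12.7 CPM and was 10.7-fold higher (interval 5.90 to 21.2). lrata, which esterifies retinol, and rpe65a, an isomerase of the visual cycle, were 6.35-fold (interval 2.45 to 20.9) and 3.86-fold higher (interval 1.82 to 9.12). rbp3, the retinoid carrier between photoreceptors and their neighbours, had 9.09, 1.80, 1.09 and 3.54 CPM and was 3.25-fold higher (interval 1.62 to 7.07), with the control above both. rbp2a, also called higher, had 10, 40, 0 and 6 counts, so it was highest at 0.01 mg/L.

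Non-visual opsins, a list that here includes exorh of the pineal organ, showed no common direction. Of 32 matched, 10 were measured, 2 were higher and 1 was lower (1.91% and 1.35% of all measured genes), and the median was 0.02. Besides exorh, opn6a was higher, at 1.87, 0.635, 0.397 and 2.16 CPM (5.45-fold, interval 1.85 to 21.8). tmtops2a, an opsin of many teleost tissues, had 3.30, 5.19, 4.86 and 1.08 CPM and was 4.49-fold lower (interval 2.305 to 9.58).

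These light-sensing lists rest on few reads, and the filter bears on them. Of the genes called higher, gngt1, gnat1, pde6b, cnga3a, aanat2, asmt, lrata and rpe65a averaged under 1 CPM over the control and 0.01 mg/L libraries. They passed the filter mainly through the 1.0 mg/L library, as the lower grk1b did through that of 0.1 mg/L. With the filter set on the control and 0.01 mg/L libraries alone, a choice made after seeing the data, the median was 0.54 for rod-type, 0.93 for cone-type, 0.23 for pineal and 0.07 for retinoid genes. It left 5 of 12 rod-type, 4 of 9 cone-type, 3 of 16 pineal and 3 of 27 retinoid genes higher and 0 lower. These counts overlap: exorh is in both the rod-type and pineal lists, and rbp3 in both the pineal and retinoid lists. At a mean of at least 5 CPM the rod-type median was 0.10 and the retinoid median -0.04, and the cone-type median ran from 0.48 over members with any count to 1.16 over all settings. Over members with any count, 24 of 35 rod-type, 23 of 31 cone-type and 24 of 34 pineal genes were higher in CPM at 1.0 mg/L. The medians of those members were 0.506, 0.481 and 0.465, beside -0.005 over all 23677 genes with a count in the 2 libraries. Markers of other retinal cells, 19 measured of 38 matched, summed to 566.5, 477.1, 524.7 and 468.3 CPM with a median of 0.16. Among them rpe65a was higher and cabp5b, a bipolar cell gene in the mammalian retina, was lower (2.48-fold, interval 1.27 to 5.15). Their part in the difference was not tested.

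The list of circadian clock repressors, which also holds their regulators and relatives, leaned lower at 1.0 mg/L. All 26 matched members were measured, and 2 were lower and 0 higher (1.35% and 1.91% of all measured genes). The median was -0.23, with 20 members below 0 and 6 above. per3 (ENSDARG00000010519, chromosome 11, 39959039 to 40021080), a period gene, had 92.3, 61.0, 98.7 and 42.4 CPM and was 2.33-fold lower (interval 2.08 to 2.61). ciarta (chromosome 19, 8928434 to 8940068), a repressor of clock and arntl, had 47.8, 13.0, 28.5 and 12.9 CPM and was 2.21-fold lower (interval 1.79 to 2.74). In both genes the control and 0.1 mg/L libraries were high and the 0.01 and 1.0 mg/L libraries low.

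The nuclear receptor gene nr1d1 and the period genes per1a and per1b were likewise higher in the control and 0.1 mg/L libraries than in the other two, without reaching the size rule. The first had 106, 47.0, 91.3 and 49.3 CPM (log2 ratio -0.88), per1a 27.6, 21.3, 29.2 and 16.7 CPM (-0.78), and per1b 103, 56.2, 100 and 62.2 CPM (-0.68). The cryptochrome gene cry2 stood at -0.59 and the helix-loop-helix repressor gene bhlhe40, at 345, 296, 285 and 193 CPM, at -0.56. fbxl3a, which marks cryptochromes for breakdown, went the other way at 15.7, 18.2, 10.3 and 19.7 CPM (0.90), as did cry3b (0.36).

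Activators and outputs of the clock had 20 of 22 matched members measured and a median of 0.09. Of these 0 were higher and 0 lower, beside 1.91% and 1.35% of all measured genes. The core activators clocka, clockb, arntl1a and arntl1b stood at 0.13, 0.35, -0.04 and 0.19. rorca, a nuclear receptor that activates arntl genes, had 11.13, 10.2, 7.74 and 14.8 CPM (0.90), and the output factor tefb had 36.7, 32.8, 17.5 and 31.0 CPM (0.81). The output factor dbpa went down the doses from 20.5 CPM in the control through 12.4 and 11.11 to 7.77 CPM (-0.49).

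**Figure D4:**
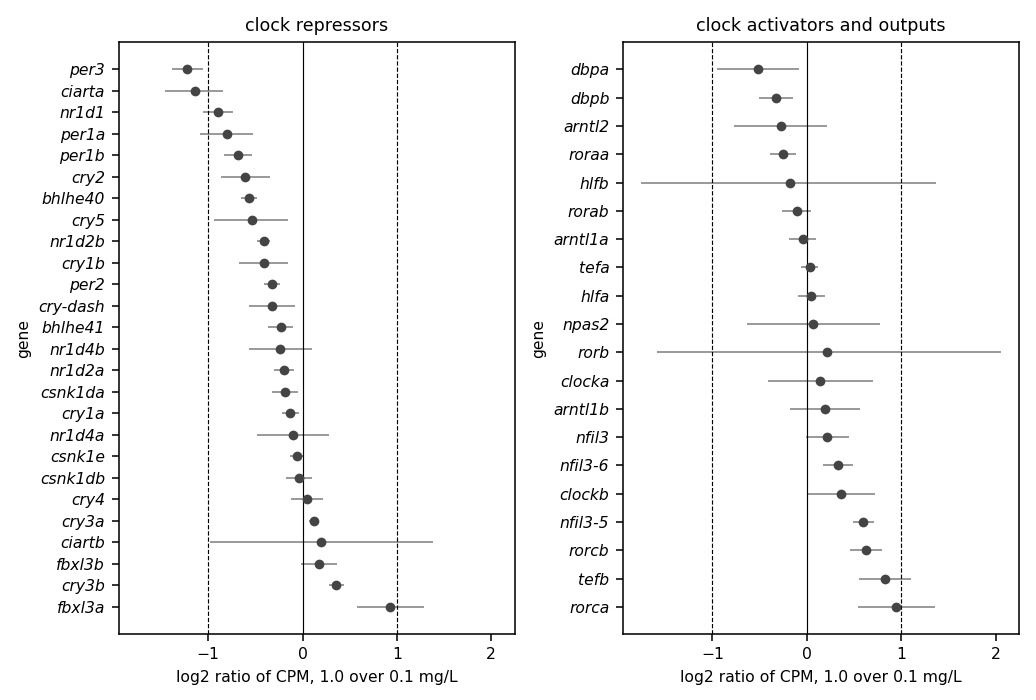
Log2 ratio of CPM, 1.0 over 0.1 mg/L (horizontal axis), without an added constant. Left are the 26 genes of the clock repressor list, which also holds regulators and relatives, and right 20 clock activators and outputs. Bars are the exact 95% interval from counting error and dashed lines mark 2-fold. Most genes of the repressor list lie left of 0, with per3 and ciarta beyond the dashed line, while the activators and outputs spread around 0.

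Among oxytocin, vasopressin and preoptic genes, 20 of 28 matched were measured, and the oxytocin gene was the 1 called, as lower. That is 5% called, beside 3.26% of all measured genes. oxt (ENSDARG00000042845, chromosome 5, 72087619 to 72093253), the oxytocin precursor, had 1568, 2017, 649 and 225 counts from the control to the highest dose. The corresponding levels were 140, 214, 64.4 and 22.1 CPM, so that oxt was 2.91-fold lower at 1.0 than at 0.1 mg/L (interval 2.496 to 3.40). avp, the vasopressin precursor, had 8.19, 9.10, 4.96 and 5.90 CPM (log2 ratio 0.23). The releasing hormone genes crhb, at 45.2, 35.5, 35.4 and 23.4 CPM (-0.59), and trh, at 104, 73.9, 85.8 and 59.9 CPM (-0.51), were lowest at 1.0 mg/L. The transcription factors that specify preoptic cells, otpa and otpb, stood at -0.07 and 0.19, and the list's median was 0.06.

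Feeding and arousal peptides had 43 of 54 matched members measured, 3 higher, 1 lower and a median of -0.03. The called share was 9.3%, beside 3.26% of all measured genes. pmchl (ENSDARG00000076978, chromosome 5, 54685175 to 54685710), a precursor of melanin-concentrating hormone, had 101, 101, 145 and 312 CPM and was 2.15-fold higher (interval 2.02 to 2.29). agrp, which drives feeding by blocking melanocortin receptors, had 12.9, 8.57, 3.57 and 12.9 CPM and was 3.61-fold higher (interval 2.48 to 5.37). For agrp the 0.1 mg/L library was the low one and 1.0 mg/L equalled the control, whereas pmchl was highest at 1.0 mg/L. pomcb, a precursor of melanocortins, had 8, 14, 3 and 16 counts (a ratio of 5.29, interval 1.51 to 28.3), and cart4, a gene of the appetite-reducing CART family, was 2.26-fold lower (interval 1.48 to 3.52).

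Factors of hypothalamic identity showed 2 higher and 0 lower of 26 measured (7.69% called, beside 3.26% of all measured genes), with a median of 0.21. They were nkx2.4a, at 9.71, 12.3, 7.44 and 17.3 CPM (2.33-fold, interval 1.77 to 3.09), and its paralog nkx2.4b, at 1.51, 2.01, 2.18 and 5.11 CPM (2.34-fold, interval 1.40 to 4.05). Both were highest at 1.0 mg/L. Pituitary markers, of which 10 of 24 were measured, held pomcb higher and the prolactin-family gene prl2 lower (17, 22, 29 and 8 counts, 3.66-fold, interval 1.63 to 9.25). That is 20% of the 10, beside 3.26% of all measured genes. Among 23 measured secretory granule genes 1 was called (4.35%), the gene of symbol scg5 on chromosome 19 (ENSDARG00000077045, 47523730 to 47527192), whose family chaperones a prohormone convertase. It had 0.802, 3.18, 1.49 and 14.3 CPM and was 9.59-fold higher (interval 5.62 to 17.6).

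Transmitter and memory lists had called shares of 4.08% (glutamate), 5.26% (GABA and glycine) and 3.57% (plasticity and memory), beside 3.26% of all genes. Glutamate signalling had 2 higher of 49 measured (median 0.03), both of them uptake transporters: slc1a3b (ENSDARG00000043148, chromosome 10, 36558804 to 36592486) and slc1a6. slc1a3b, an uptake transporter of astroglia, had 8.19, 7.52, 4.66 and 17.0 CPM and was 3.65-fold higher (interval 2.63 to 5.15). slc1a6, a transporter of cerebellar Purkinje cells in mammals, had 30, 15, 8 and 27 counts and was 3.35-fold higher (interval 1.48 to 8.52). In the GABA and glycine list, 38 measured with a median of -0.12, the GABA transporter gene slc6a11b was 2.28-fold higher (interval 1.60 to 3.28). The receptor subunit gene gabrr2b was 3.87-fold lower (interval 1.53 to 11.6), with 28, 3, 23 and 6 counts.

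slc1a3b and slc6a11b were also the 2 higher genes among 35 measured radial glia and astroglia markers (5.71%, beside 3.26% of all measured genes). Those markers had a median of 0.16 and summed to 6184, 5195, 5373 and 5817 CPM from the control to 1.0 mg/L. Their part in these 2 results was not tested. Cholinergic genes, 17 measured, had 0 called and a median of -0.21, with 13 below 0 and 4 above. Of 56 genes of synaptic plasticity and memory 2 were higher and 0 lower (median 0.14). These were cpeb3, a regulator of local translation at synapses, with 20, 24, 4 and 19 counts (4.71-fold, interval 1.57 to 19.04), and adcy1a, a calcium-driven adenylyl cyclase gene, with 19, 36, 5 and 17 counts (3.37-fold, interval 1.19 to 11.7). In both the 0.1 mg/L library was the low one of the 4. None of the 48 measured immediate early genes was called (median 0.07), and neither was any of 22 telencephalon factors (0.10).

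Of 39 measured xenobiotic response genes 3 were called (7.69%, beside 3.26% of all genes), 1 higher and 2 lower. All 3 had a mean under 5 CPM over the 2 libraries, as 404 of all 538 calls had. nr1i2, the pregnane X receptor, was higher, at 2.85, 3.60, 1.69 and 4.33 CPM (2.57-fold, interval 1.44 to 4.79). The glucuronosyltransferase genes ugt1b1 and ugt1a1, which couple glucuronic acid to foreign compounds, were 3.19-fold (interval 1.23 to 9.77) and 2.72-fold lower (interval 1.28 to 6.30). The median was -0.03, and cyp1a, a classic target of the aryl hydrocarbon receptor, had 189, 133, 400 and 249 counts (log2 ratio -0.69). prdx1 (ENSDARG00000058734, chromosome 2, 6104378 to 6115688), a peroxidase that removes hydrogen peroxide, was the 1 gene called of 32 measured oxidative stress genes (3.12%). It had 33.4, 40.5, 24.99 and 69.2 CPM and was 2.77-fold higher (interval 2.396 to 3.21). Among 54 heat shock genes 1 was higher (1.85%), the chaperone gene dnajb5, with 19, 23, 5 and 23 counts (4.56-fold, interval 1.70 to 15.4).

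Some families leaned in 1 direction by small amounts, and no ribosomal or respiratory chain gene was called. Of 84 cytosolic ribosomal protein genes 82 were below 0 and 2 above, with a median of -0.17. Nuclear genes of oxidative phosphorylation had 56 of 78 below 0 and a median of -0.12, while 12 of 13 mitochondrially encoded genes were above 0 with a median of 0.13. Cerebellar genes had 24 of 30 above 0 and a median of 0.14, with slc1a6 called higher (3.33%, beside 3.26% of all measured genes). The Purkinje cell marker aldoca, an aldolase gene also listed among the radial glia and astroglia markers, had 2462, 982, 2149 and 3821 counts (log2 ratio 0.82). Over all measured genes 7953 were above 0 and 8520 below.

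Markers of the main brain cell types had small medians, with more members below 0 than above. Neuronal markers (35 measured) had a median of -0.06, with 11 above 0 and 24 below. The median was -0.17 for oligodendrocyte markers (22 measured, 6 above and 16 below) and -0.11 for endothelial markers (34 measured, 13 above and 21 below). Each of these lists had 0 called, beside 3.26% of all measured genes. Elavl3 and snap25a, which define neurons, had log2 ratios of 0.20 and -0.22, and mbpa, which defines myelin, -0.14. Red blood cell markers had 2 lower of 20 measured and a median of -0.18, with 3 above 0 and 17 below. The 2 were the membrane gene rhag (3.46-fold, interval 1.45 to 9.50) and the nucleotidase gene nt5c2l1 (2.398-fold, interval 1.84 to 3.14). Skeletal muscle markers had 3 lower of 33, ckmb, tnnc2 and tnni2b.2 (median -0.21), and summed to 727.3 CPM at the lower dose and 700.7 CPM at the higher. Meningeal and fibroblast markers had the collagen genes col11a1b higher and col5a2b lower among 35 (median -0.14). The cilia gene rsph9 was the 1 higher of 34 ependymal markers (0.04), and krt4 the 1 lower of 18 skin markers (-0.21). Called shares were 10% of red blood cell, 9.09% of skeletal muscle and 5.71% of meningeal markers, beside 3.26% of all measured genes. They were 2.94% of ependymal and 5.56% of skin markers, and each share rests on 1 to 3 genes.

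**Figure D5:**
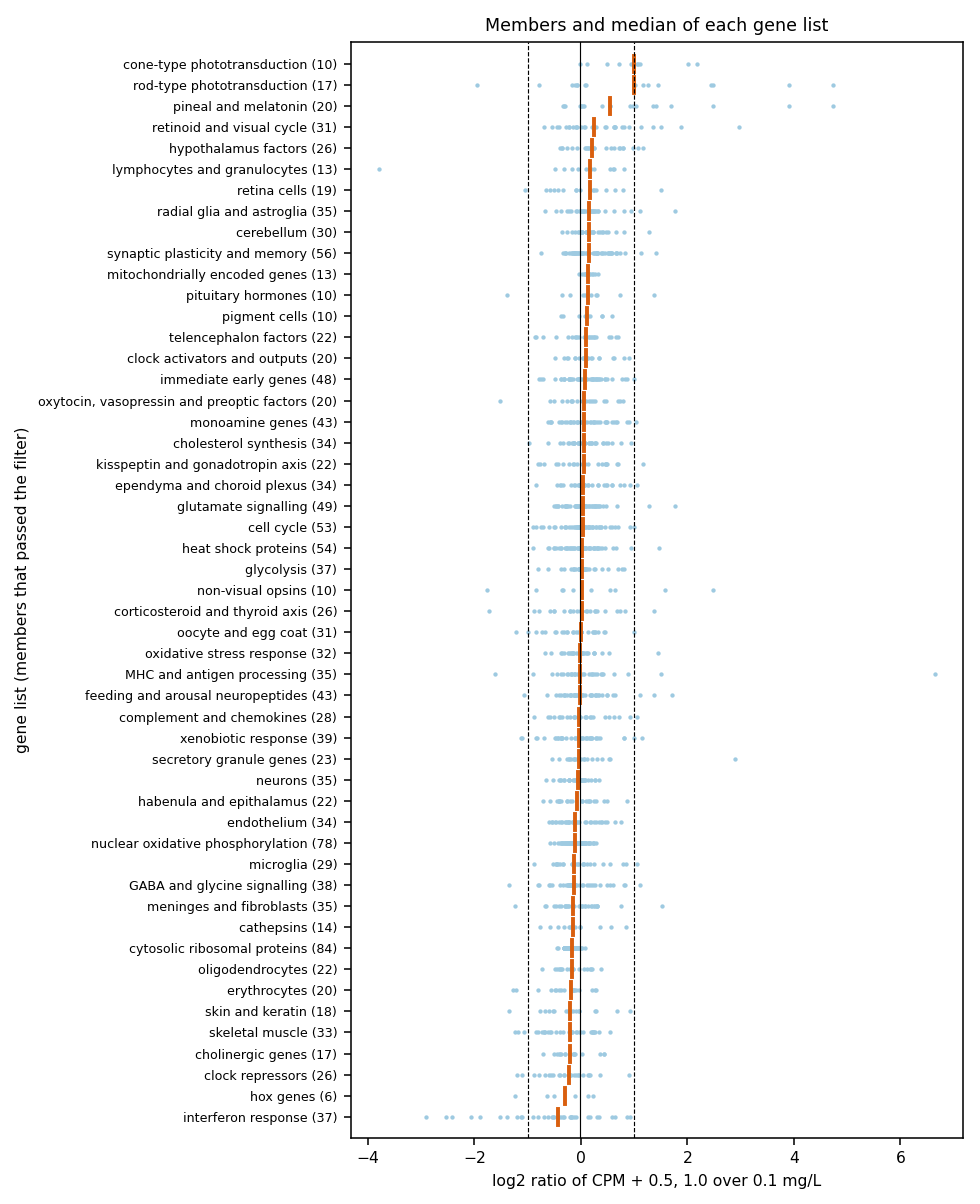
Log2 ratio of CPM + 0.5, 1.0 over 0.1 mg/L, for every measured member of 51 gene lists (points) and each list's median (bars), ordered by median with the number measured in brackets; dashed lines mark 2-fold. Cone-type, rod-type and pineal lists have the highest medians, at 0.99, 0.99 and 0.55, and the interferon list the lowest, at -0.43.

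Outside the lists, several genes of good depth differed between the doses. lama5 (ENSDARG00000058543, chromosome 23, 9567334 to 9768700), a laminin chain of basement membranes, had 41.6, 54.2, 15.3 and 83.6 CPM and was 5.47-fold higher (interval 4.60 to 6.54). bahcc1b (chromosome 12, 34561304 to 34758474), whose mammalian relative binds a repressive histone mark, had 149, 44.6, 60.3 and 188 CPM and was 3.12-fold higher (interval 2.85 to 3.43). nars1, the asparaginyl-tRNA synthetase, had 76.2, 112, 55.5 and 116 CPM and was 2.09-fold higher (interval 1.89 to 2.32). For lama5 the 0.1 mg/L library was the lowest of the 4, as it was for nars1. Also among the 15 highest named genes were baiap3, zfyve9b, txlnbb, pimr58 and the protocadherin gene pcdh1g32, at log2 ratios of 1.65, 1.53, 1.68, 1.75 and 1.74.

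In the lower direction, oaz1b (chromosome 21, 723998 to 735587), an antizyme gene that restrains polyamine synthesis, had 105, 136, 265 and 91.0 CPM and was 2.92-fold lower (interval 2.71 to 3.15). znf1179, a zinc finger gene (chromosome 22, 1796057 to 1800444), had 129, 90.1, 236 and 58.0 CPM and was 4.06-fold lower (interval 3.71 to 4.45). Both were highest at 0.1 mg/L. wscd1b had 112, 154, 251 and 123 CPM and was 2.04-fold lower (interval 1.90 to 2.18). srsf3a, a splicing factor gene, and spdl1, a gene of the mitotic spindle, had log2 ratios of -2.12 and -1.71. SLC16A6, a transporter gene annotated as a polymorphic pseudogene, had -1.79. Of the genes known by clone names, CU984600.2 had 4.81, 9.10, 133 and 9.74 CPM and was 13.6-fold lower (interval 11.099 to 16.9), and FQ378016.1 was 3.97-fold higher (interval 3.60 to 4.39).

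Clustered protocadherins, cell-surface molecules that give neurons their identity, include 52 genes, of which 36 were measured. Of the 36, 1 was higher and 3 were lower, beside 1.91% and 1.35% of all measured genes. The 3 lower were pcdh1a6, pcdh1g3 and pcdh1g13. pcdh1a6 had 55.2, 24.7, 58.4 and 20.3 CPM and was 2.88-fold lower (interval 2.46 to 3.40), high in the control and 0.1 mg/L libraries and low in the other two. These genes share exons on chromosome 10, and pcdh1g32 lies within the span of pcdh1g3 (21660447 to 21820057), so reads may be divided between members. Families of near copies were chosen after their values were seen. Beside the 3.26% of all genes, 17.6% of 17 measured pimr kinase genes and 6.59% of 182 numbered zinc finger genes were called. Other families counted were solute carriers (4.56% of 263), potassium channels (6.67% of 60), collagens (8.57% of 35) and crystallins (0 of 5). The major histocompatibility and ifi families, with genes named above, had 37.5% of 8 and 50% of 4 called.

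A few genes were present in 1 of the 2 libraries and nearly without counts in the other. With at most 3 counts in one and at least 50 in the other, 6 genes (0.0363%) were high at 1.0 mg/L and 6 (0.0363%) at 0.1 mg/L. Beside mhc1uba, gngt1 and gnat1, the gene si:ch211-57b15.1 on chromosome 21 (29179887 to 29186128) had 0, 0, 0 and 192 counts, at least 63.5-fold higher at 1.0 mg/L. CR749163.2 and si:dkeyp-97a10.3 completed the 6, with 2 against 53 and 3 against 57 counts. In the other direction, the potassium channel gene kcnk5a had 6, 1, 65 and 0 counts, at least 21.9-fold lower at 1.0 mg/L. vtg1, a yolk protein gene that the liver expresses under oestrogen, had 3, 27, 64 and 0 counts, at least 21.5-fold lower. pimr107 had 42, 44, 90 and 0 counts, si:ch211-261n11.7 had 286, 159, 192 and 2, BX537263.4 had 143, 0, 174 and 0, and CABZ01069162.1 had 15, 10, 66 and 3.

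Calls were spread over all 25 chromosomes. The share called ran from 1.52% on chromosome 18 and 1.60% on chromosome 25 to 5.26% on chromosome 12, 5.67% on chromosome 4 and 6.19% on chromosome 22. None of the 15 measured mitochondrial genes was called. Of 16005 protein-coding genes 3.06% were called, against 6.47% of 232 long intergenic RNAs and 11.5% of 139 processed transcripts. These shares are not matched for abundance.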

How the data were processed

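Libraries came from a stranded mRNA kit read as paired ends of 151 bp, per the labels' protocols. The submitters' processing notes name cutadapt 2.8 and STAR 2.7.1a, with RSEM 1.3.1 for counting and GRCz11 as genome build. Per the file headers, the authors deposited an expected count, an RPKM and a TPM value for each gene and library. The expected counts are whole in the deposited table, and 141 zeros among them have an RPKM above 0, which is why they were treated as rounded RSEM estimates. The deposited table further holds a p-value, a q-value and a log2 fold change of every dose set against control, which were not used here.

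TMM factors over the 4 libraries (edgeR 4.0.16, R 4.3.3) were 1.011, 0.9315, 1.018 and 1.043 from the control to 1.0 mg/L. Of 32520 genes, 7627 had no count, and 16522 passed the filter of a mean of 1 CPM. Log2 ratios are of CPM + 0.5, which understates low genes, and folds are of CPM alone. Intervals are exact Clopper-Pearson 95% intervals conditional on the sum of both counts. They and the floor of 3 counts cover counting error only. The rule was tested on simulated counts that held counting error alone, so that test does not cover variation between fish. No p-value was computed. Python 3.11.15 was used with scipy 1.17.1, pandas 2.3.3, numpy 2.4.6 and, for plots, matplotlib 3.10.9.

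The comparison and the 51 gene lists (2240 entries, 2097 matched by symbol, 1541 measured) were chosen with earlier results of these data known. Named genes are the 15 highest and 15 lowest called with a mean of at least 5 CPM over both libraries and an informative symbol, up to 5 called per list, the 8 most abundant called, and members of 7 lists: interferon, antigen presentation, rod-type, pineal, both clock lists and preoptic. Others were named after their values were seen: uncalled members of further lists, genes under the filter, families of near copies, c3b.2, nos2a, rcvrnb and oprm1. All-or-none genes have a rule of their own. Alternatives covered scaling (DESeq2 1.42.0 size factors, library totals), filters, pseudocounts, mitochondrial genes and the deposited TPM and RPKM. No sequence was used.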

Additional observations from a re-analysis of the deposited data

Results flagged for a closer look

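Members of the 5 light-sensing lists that fell under the filter on low values form data that the comparison leaves out. These 92 genes of phototransduction, pineal, retinoid and opsin lists summed to 280, 167, 204 and 489 counts in the control and the rising doses. At 1.0 mg/L, 43 of them had more counts than at 0.1 mg/L and 26 had fewer. The same split over all genes under the filter was not made, so whether 43 to 26 is unusual is not known. The counts were drawn to attention because they exceeded those of the control. Among them guca1a, which codes for an activator of the photoreceptor guanylate cyclase, had 1, 1, 2 and 31 counts from the control to 1.0 mg/L, unc119.2 had 1, 0, 0 and 22, saga, an arrestin gene, had 2, 2, 1 and 18, and cnga1a, a channel subunit gene of rods, had 0, 1, 0 and 15. rom1a, a disc membrane gene, went the other way with 14, 1, 5 and 1 counts. Each group is 1 library, so the difference has no replicate check.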

How the results depend on the processing

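No paired analysis was possible because each group holds 1 library. The main rule gave 315 genes higher and 223 lower at 1.0 mg/L. Without a filter beyond 1 count there were 547 higher and 366 lower, at a mean of at least 5 CPM 73 and 60, and with a pseudocount of 2 CPM 85 and 65. These 3 settings change how many low genes can pass. Library totals gave 357 higher and 194 lower, so 64.8% of calls were higher where the main scaling gave 58.6%, and moved the median gene from -0.01 to 0.02. The deposited TPM gave 276 and 167 and shared 375 calls with the main rule. A filter on the control and 0.01 mg/L libraries alone, added after seeing the data, gave 294 and 198. Of 95 named called genes, 47 lost their call under at least 1 of 11 settings in which they were still measured, and 0 changed direction. The median kept its sign under every setting run in 36 of 51 lists. Among the 15 that changed sign the largest was that of the retinoid list, 0.25 against -0.04 at a mean of at least 5 CPM. The interferon median ranged from -0.45 to -0.20, the rod-type median from 0.10 to 1.17 and the clock repressor median from -0.23 to -0.19. The hox list has no value at a mean of at least 5 CPM. Depth limits most calls: 404 of the 538 rest on a mean under 5 CPM, and the photoreceptor genes gngt1, gnat1 and pde6b on 2, 3 and 1 counts at 0.1 mg/L.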

Other observations

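The pineal and phototransduction genes did not share 1 order across the 4 libraries. exorh, gngt1 and arr3a were lowest at 0.1 mg/L and highest at 1.0 mg/L, whereas rbp3 and gucy2d were highest in the control, at 9.09 and 6.32 CPM. rcvrnb, a recoverin gene of photoreceptors chosen after its values were seen, had 4, 2, 0 and 47 counts from the control to the highest dose, at least 15.5-fold higher at 1.0 than at 0.1 mg/L. The opioid receptor gene oprm1, also chosen afterwards, had 27, 17, 14 and 75 counts (5.31-fold higher at the highest dose, interval 2.98 to 10.2).

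The calls among hormone axis genes were all of low depth. Of 22 measured genes of the kisspeptin and gonadotropin axis 1 was called (4.55%), beside 3.26% of all measured genes. The corticosteroid and thyroid axis had 2 called of 26 (7.69%), pomcb as higher and thrab as lower. cyp17a1, an enzyme of androgen synthesis, had 13, 13, 7 and 22 counts (3.12-fold higher at 1.0 than at 0.1 mg/L, interval 1.29 to 8.64). thrab, a thyroid hormone receptor gene, had 19, 11, 15 and 1 counts, a ratio of 15.1 in favour of 0.1 mg/L (interval 2.33 to 637). Of 6 measured hox genes 1 was called (16.7%, beside the same 3.26%). It was hoxb5b, lower at 1.0 mg/L with 25, 13, 44 and 16 counts (2.77-fold, interval 1.53 to 5.27).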
